A study of Drosophila melanogaster with 2 samples.

Results

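The genes described here are 10 fly genes for basic helix-loop-helix (bHLH) transcription factors of the nervous system and of peptide-secreting cells: ac, sc, l(1)sc and ase of the achaete-scute cluster, ato, amos and cato of the atonal group, and tap, dimm and Oli. They were chosen by name in the Ensembl annotation, where all 10 were found, and they are 10 of 13968 protein-coding genes on the chromosome arms. The data are ChIP-seq peaks of Fer3, another bHLH factor, in whole Drosophila melanogaster embryos of 6 to 24 h. All embryos came from 1 transgenic line that stably carries Fer3 with GFP at its C terminus, and the precipitation used an antibody against GFP. There was 1 group of 2 biological replicates, no untagged or mutant group was compared, and the sequencing depth is unknown because the peak lists hold no read counts. The promoter that drives the tagged protein is not given in the sources used here, and whole embryos mix all tissues, so each peak is an average over them.

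Proneural proteins make groups of ectodermal cells able to take a neural fate. They pair with the product of da and bind E-boxes, short DNA sites written CANNTG. In Drosophila, ac and sc act in external sense organs and neuroblasts, l(1)sc in neuroblasts of the central nervous system, and ase in neural precursors after they are chosen. The factor ato directs photoreceptors and internal stretch receptors, amos a set of olfactory organs, and cato the development of sensory neurons after precursors are selected. The product of dimm drives the secretory fate of peptidergic neurons and endocrine cells, tap is the fly relative of the vertebrate neurogenins, and Oli is the relative of the vertebrate Olig genes and is used in motor neurons.

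Few Fer3 peaks lay at these genes. Within a gene or 5 kb on either side, the reproducible list, which the authors thresholded by the irreproducible discovery rate (IDR), placed a summit at 1 of the 10 genes, Oli, while 54.0% of all protein-coding genes had one. The pooled list, called on both replicates together, had 6 summits at 2 of the 10, Oli and dimm, and a pooled summit lay at 80.8% of all genes. With a deposited q of at most 0.05, 3 pooled summits remained, at the same 2 genes, and 71.4% of all genes had one. Replicate 1 placed 15 summits at 4 of the 10 (l(1)sc, tap, dimm and Oli), against 86.0% of all genes, and replicate 2 placed 10 at Oli and dimm, against 79.4% of all genes. The other 6 members (ac, sc, ase, ato, amos and cato) had no summit in any list, whereas 92.2% of all genes had a summit in at least 1 list.

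**Figure D1:**
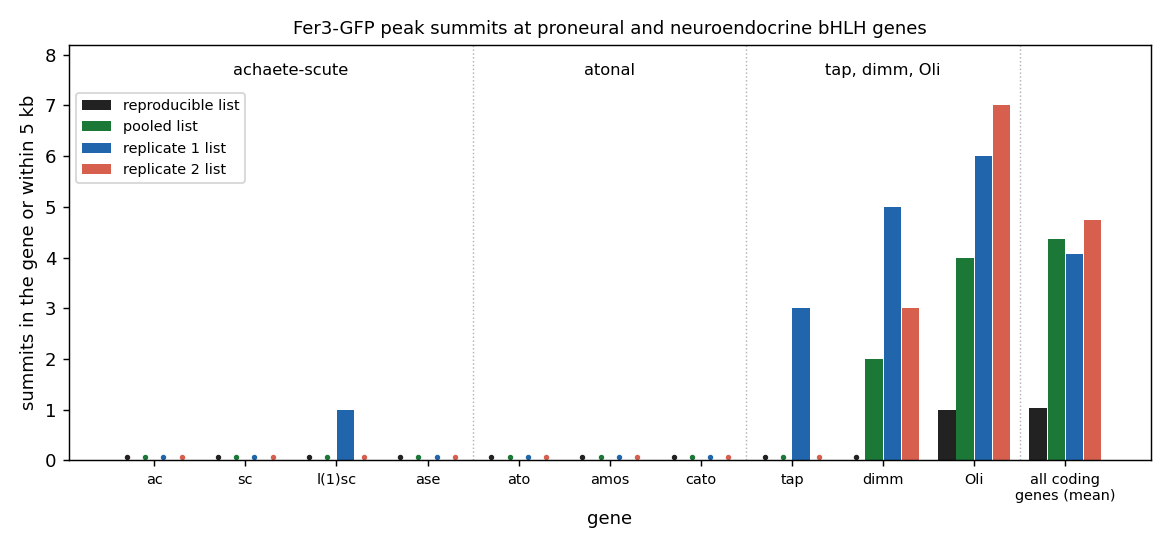
Number of peak summits in each gene or within 5 kb of it, in each of the 4 deposited lists, with the mean over all 13968 protein-coding genes at the right and dots for counts of 0. Oli reaches 4 to 7 summits in the pooled and replicate lists, while ac, sc, ase, ato, amos and cato are at 0 in all of them.

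Most members lie far from other coding starts. The windows of 7 members held no start of another protein-coding gene, which was true of 9.6% of all genes, and all genes had a median of 3 such neighbours. These 7 (ac, sc, l(1)sc, ase, ato, amos and tap) had no reproducible and no pooled summit, while of all 1337 genes with no neighbouring start 24.1% had a reproducible summit and 63.6% a pooled one. Both shares of the 1337 genes are lower than those of all genes, and the part of neighbouring starts in the members' counts was not tested. Windows of the members were 10.7 to 20.4 kb long, against a median of 12.2 kb for all genes. Per length, the 10 windows held 4.87 pooled summits per 100 kb, the windows of all protein-coding genes 24.1, and all arms together 21.8.

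Oli carried the one reproducible peak. The gene (FBgn0032651, dm6 2L, 17589184 to 17591267, plus strand) has 3 annotated coding starts, and the peak, at 17589807 to 17590170, lies inside it. Its summit at 17589989 is 151 bp upstream of the most downstream start, in a stretch that is 5′ UTR in 1 annotated transcript. The authors' signal value, a height per peak whose scale is not stated and which is compared here only within a list, was 131.7, and the lowest in the reproducible list was 125.8. The peak therefore sits near the bottom of that list, at rank 5342 of 5636. Replicate 1 held the site with its summit at 17590025, a signal value of 47.9 and rank 5664 of 30000. Replicate 2 held it at 17589959, with 88.7 and rank 5183. The 2 summits are 66 bp apart, and both replicates gave it a deposited q under 0.05, with a −log10 q of 2.38 in replicate 1 and 4.11 in replicate 2.

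A second Oli site lay just outside the reproducible list. Its pooled summit at 17588854, 330 bp upstream of the first start, had a signal value of 115.1, rank 6223 of 30000 and a deposited q of 0.000241. The replicate 1 summit at 17588949, with a signal value of 37.5 and rank 7854, lay 95 bp from this pooled summit. It was 106 bp from the pooled summit at 17589055. Replicate 2 held the site at 17588859 with 85.4 and rank 5456. Both sites thus ranked higher in replicate 2 than in replicate 1. Of the other pooled summits at Oli, the one at 17589055 was low, at rank 26546. The one at 17594249 lies in an intron of the neighbouring synaptotagmin gene Sytalpha, 416 bp from a start of that gene, at rank 19302. Replicate 2 matched the Sytalpha site 36 bp away, at rank 20880, whereas the nearest replicate 1 summit was 1428 bp away. In replicate 1 alone, a summit at 17588357 in an exon of lncRNA:CR44411 reached rank 7941 and a deposited q of 0.0321, with no replicate 2 summit nearer than 502 bp. The other replicate 1 summits, at 17584897, 17587194 and 17592821, had ranks of 26374, 29538 and 22211 and deposited q of 0.492 or more. The last lies 43 bp from a Sytalpha start. The other replicate 2 summits, at 17585170, 17586771, 17587636 and 17590162, ranked 17563 to 29064, with q of 0.0566 or more. The last of them lies 22 bp from an Oli start. In all, Oli had 4 pooled summits, near the mean of 4.36 over all genes. Per 100 kb of its window this was 33.1, against 24.1 over all gene windows and 21.8 over the arms.

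The sequences at the Oli sites are shown because they carry the reproducible peak and its neighbours. They are from the dm6 assembly in RefSeq, plus strand, with E-boxes in capitals. The first is cut to 29 bases because it lies in a UTR, and is centred on the replicate 1 summit. The others extend 50 bp to either side of a pooled summit.
Oli reproducible site at the replicate 1 summit, chr2L:17590011-17590039: caaaaCAGATGctccacctataaaaagct
Oli upstream site, chr2L:17588804-17588904: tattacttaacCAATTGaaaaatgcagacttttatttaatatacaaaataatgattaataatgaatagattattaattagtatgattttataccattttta
Sytalpha intron site, chr2L:17594199-17594299: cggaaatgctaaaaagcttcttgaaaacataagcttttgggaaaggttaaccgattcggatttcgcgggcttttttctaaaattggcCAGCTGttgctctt
The CAGATG at the reproducible site lies 27 to 32 bp to the right of the pooled summit, so the 29 bases centred on that summit hold 0 E-boxes. Within 50 bp of the replicate 2 summit of this site there were also 0. The upstream site has a GC content of 15.8%, against a mean of 38.9% over all pooled windows, and its E-box is CAATTG. Within 50 bp of its replicate 1 summit there were 0 E-boxes. The Sytalpha site holds CAGCTG, a class found in 4.41% of all pooled windows.

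At dimm (FBgn0023091, 2L, 21331756 to 21342155, plus strand) the 2 replicates shared a site 2.3 kb upstream of the gene. Its pooled summit at 21329416, in intergenic sequence 2340 bp from the first dimm start, had rank 9648 and a deposited q of 0.00472. Replicate 1 placed it at 21329407 with a signal value of 40.3, rank 7074 and q of 0.0177. Replicate 2 placed it 16 bp away with a signal value of 26.4, rank 20671 and q of 0.125, so here replicate 1 had the higher rank. The summit nearest to the gene's start was in replicate 1 only, 552 bp upstream at 21331204, with rank 6298 and q of 0.00945, and the closest replicate 2 summit was 1813 bp away. In replicate 2 only, a summit at 21328710 had rank 15402 and q of 0.0236. The other pooled summit, at 21345284, lies in an intron of the tetraspanin gene Tsp39D at rank 27236, and replicate 2 held it at 21345260, at rank 26814. In replicate 1 alone, 1 summit lay inside dimm, in its 3′ UTR at 21342135, with rank 26052 and q of 0.592. Further replicate 1 summits lay at 21343563 (rank 24544, q of 0.55) and 21344534 (rank 13656, q of 0.211). The last is 73 bp from a Tsp39D start. The nearest reproducible summit to dimm was 21.48 kb away, 229 bp from a start of Mondo.

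The shared dimm site held no E-box within 50 bp of its summit, while the replicate 1 site nearer the start held CATTTG and the low site in Tsp39D held 3 E-boxes. They are printed in the same way, to show the sites with and without the motif.
dimm shared upstream site, chr2L:21329366-21329466: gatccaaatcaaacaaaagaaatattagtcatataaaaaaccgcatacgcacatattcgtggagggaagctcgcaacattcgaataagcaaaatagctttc
dimm replicate 1 site, chr2L:21331154-21331254: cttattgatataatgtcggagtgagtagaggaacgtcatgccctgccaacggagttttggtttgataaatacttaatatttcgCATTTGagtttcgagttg
Tsp39D intron site, chr2L:21345234-21345334: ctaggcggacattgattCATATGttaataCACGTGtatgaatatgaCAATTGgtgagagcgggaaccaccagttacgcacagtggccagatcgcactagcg
Over the 6 pooled windows at members, 4 held an E-box, and 39.6% of all 30000 pooled windows did. With 6 windows this is a description only. In replicate 1, 4 of 15 member windows held one, and in replicate 2, 3 of 10, while 40.4% and 39.5% of all windows of those lists did.

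**Figure D2:**
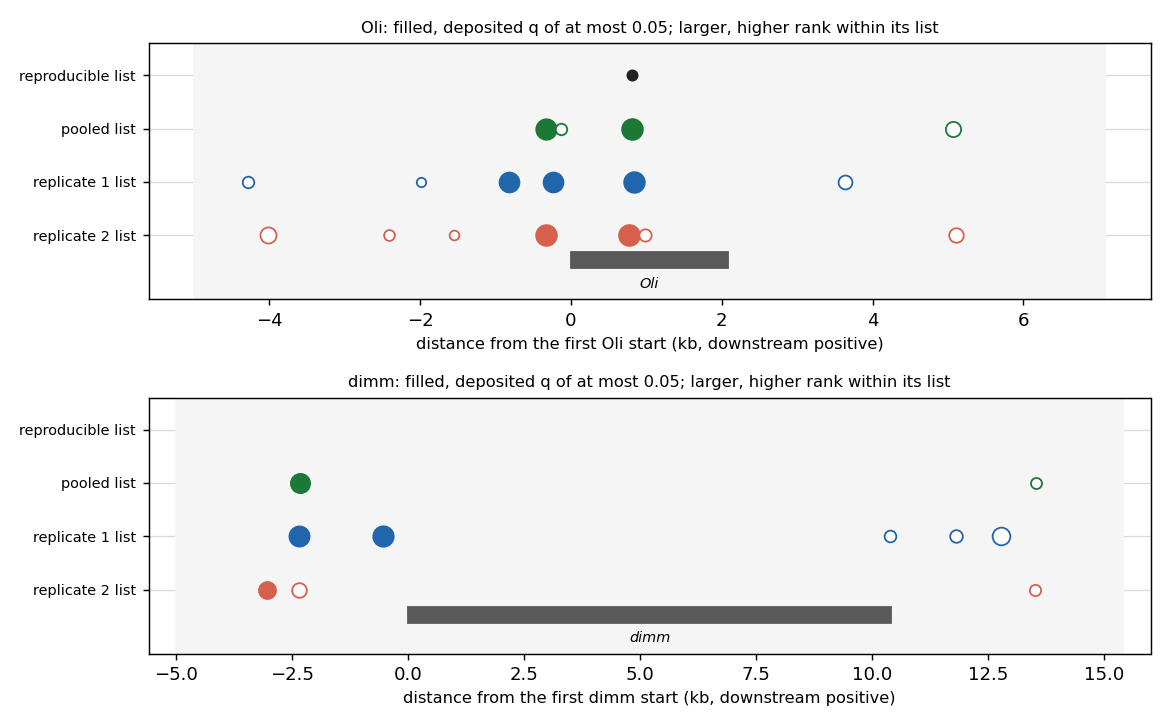
Positions of summits at Oli (top) and dimm (bottom) in each list, in kb from the first start of the gene; filled circles have a deposited q of at most 0.05, larger circles rank higher within their list, and the dark bar is the gene. The pooled and replicate lists have summits within 100 bp of each other at 2 Oli promoter sites and 2.3 kb upstream of dimm. The reproducible list has 1 summit at Oli and 0 at dimm.

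At tap (FBgn0015550, 3L, 17359682 to 17361811, plus strand) only replicate 1 held summits. They lay 282 bp upstream of the start, in the coding exon 331 bp downstream of it, and in the 3′ UTR. Their ranks were 27857, 15528 and 17779 of 30000, and their deposited q values were 0.63, 0.277 and 0.352. None of the 3 was near a replicate 2 summit, the closest of which lay 27.04 kb from the gene, and the pooled list came no nearer than 13.64 kb. The window of the coding site had a GC content of 66.3%, the highest among the member windows of replicate 1.

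The achaete-scute cluster was empty in 3 of the 4 lists. Its genes lie on the X on the plus strand, in the order ac (FBgn0000022, 370031 to 370947), sc (FBgn0004170, 396060 to 397497), l(1)sc (FBgn0002561, 409721 to 410817) and ase (FBgn0000137, 460747 to 463176), within a long annotated gene on the other strand, CG32816. The span with 5 kb on each side covers 103.1 kb and is known to hold enhancers of the cluster. The reproducible, pooled and replicate 2 lists had 0 summits in the whole span. Replicate 1 had 3, and none had a counterpart in the other lists. The one within 5 kb of a member, 2055 bp upstream of l(1)sc at 407666, had a signal value of 22.3, rank 17427 and a −log10 q of 0.47. The one at 419668 had rank 13955 of 30000 and a −log10 q of 0.66, and the one at 455199 had rank 28830 and 0.19. All 3 lie in introns of CG32816.

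The peak-free stretch was long for the X. Pooled summits flanked the cluster at 362280, 7.75 kb from ac and 5771 bp from a start of y, and at 487731, 24.55 kb from ase and 147 bp from a start of CG3156. The 125.5 kb between them was the second longest distance between neighbouring pooled summits on the X, of 5119, and ranked 25 of 29994 on all arms, where the median was 1.38 kb. The longest on the X, 811.1 kb, contains 7.93% undetermined bases, and the third longest, 105.1 kb, contains 0. The achaete-scute stretch also contains 0, and it holds 11 protein-coding genes. In the reproducible list the corresponding distance was longer, 155.7 kb, but ranked lower, 17 of 1018 on the X and 74 of 5630 on all arms, with a median of 8.07 kb. In replicate 2 it was 114.4 kb, ranked 7 on the X, and ended at a summit at 476655, 13.48 kb from ase. In replicate 1 the summits inside divided it, and the longest piece was 45.4 kb, ranked 30. Interval lengths were compared after the peaks at the cluster had been seen, and are given as a description. The nearest reproducible summits on the flanks lay 31.71 kb from ac at rank 1576 of 5636, and 30.83 kb from ase at rank 80, 510 bp from a start of CG17896.

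**Figure D3:**
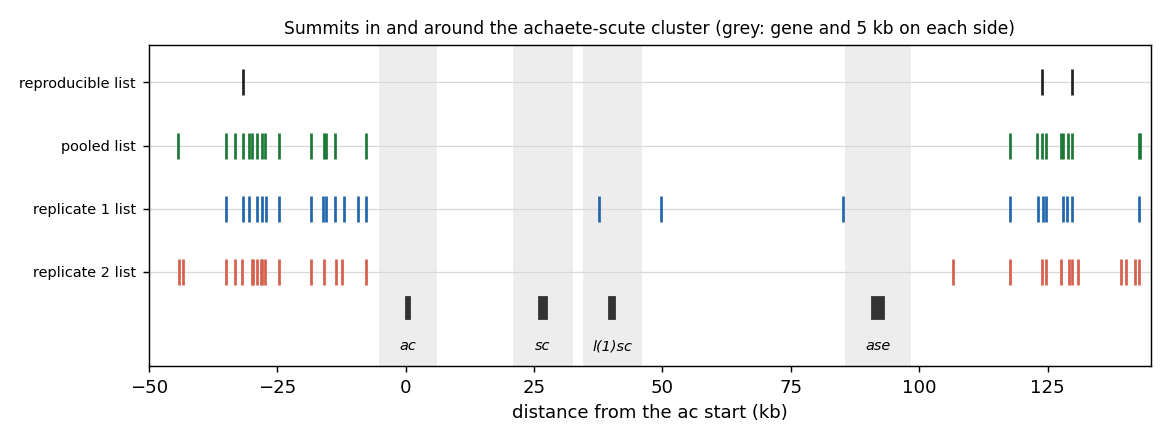
Summits of each list around the achaete-scute cluster, in kb from the ac start, with the 4 genes as dark boxes and their windows in grey. Ticks of the pooled and replicate lists are frequent further out on both flanks, and those of the reproducible list are few there. From the ac window to the ase window only replicate 1 has any, at 3 positions.

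E-boxes themselves were present in the empty cluster. The span held 448, or 4.34 per kb, against 5.25 per kb over all arms, and CAGCTG was found 27 times, or 0.262 per kb against 0.453 per kb. Its GC content was 40.2%, against 42.1% over the arms. In the 250 bases before the first start, 7 of the 10 members held at least 1 E-box, as did 68.7% of all protein-coding genes. Those of sc, tap and Oli held none, and those of l(1)sc held 1. The sequences before ac and ase, plus strand, are shown as examples of E-boxes near members without any peak, followed by the replicate 1 site upstream of l(1)sc, which holds none.
ac upstream, chrX:369781-370030: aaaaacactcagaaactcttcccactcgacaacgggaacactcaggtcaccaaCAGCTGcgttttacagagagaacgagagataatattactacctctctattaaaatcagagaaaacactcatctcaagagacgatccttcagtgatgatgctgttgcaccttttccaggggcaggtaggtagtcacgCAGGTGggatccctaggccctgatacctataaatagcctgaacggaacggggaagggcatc
ase upstream, chrX:460497-460746: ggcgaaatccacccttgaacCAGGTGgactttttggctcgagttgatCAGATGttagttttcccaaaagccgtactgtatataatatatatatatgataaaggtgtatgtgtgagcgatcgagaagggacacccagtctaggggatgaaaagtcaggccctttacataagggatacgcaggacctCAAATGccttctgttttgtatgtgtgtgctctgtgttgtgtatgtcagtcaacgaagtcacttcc
l(1)sc replicate 1 site, chrX:407616-407716: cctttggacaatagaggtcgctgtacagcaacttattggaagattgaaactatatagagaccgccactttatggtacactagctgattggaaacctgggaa
The bases before ac hold 2 E-boxes and those before ase hold 3. The first in ac is CAGCTG, a class found in the same 250 bases of 13.4% of all genes and of no other member. A match to the motif describes the sequence and is not a site.

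The atonal group had no summit in any list. For ato (FBgn0010433, 3R, 8278052 to 8279274, plus strand), the nearest reproducible and pooled summit was the same peak, 13.30 kb away and 215 bp from a start of the replication gene Mcm2, at rank 1762 of 5636. Replicate 2 placed its nearest summit at that same position, and replicate 1 had a low one 9.61 kb away, at rank 18268 of 30000. For amos (FBgn0003270, 2L, 18596136 to 18596921, minus strand), the nearest reproducible summit was 8.19 kb away, 93 bp from a start of CG10413, and ranked 95 of 5636. The nearest pooled summit, 6.11 kb from amos, was low, at rank 23828, and lay 320 bp from a start of Pde11. Replicate 2 had one 5.31 kb away, at rank 20460 of 30000. Both genes thus had peaks at neighbouring promoters and none within 5 kb. The bases before each start, on the strand of the gene, hold E-boxes of several classes.
ato upstream, chr3R:8277802-8278051: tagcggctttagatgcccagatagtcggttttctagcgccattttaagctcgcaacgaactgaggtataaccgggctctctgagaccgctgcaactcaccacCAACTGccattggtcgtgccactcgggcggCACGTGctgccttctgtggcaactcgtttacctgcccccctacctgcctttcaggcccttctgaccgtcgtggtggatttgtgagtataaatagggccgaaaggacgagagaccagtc
amos upstream, chr2L:18596922-18597171: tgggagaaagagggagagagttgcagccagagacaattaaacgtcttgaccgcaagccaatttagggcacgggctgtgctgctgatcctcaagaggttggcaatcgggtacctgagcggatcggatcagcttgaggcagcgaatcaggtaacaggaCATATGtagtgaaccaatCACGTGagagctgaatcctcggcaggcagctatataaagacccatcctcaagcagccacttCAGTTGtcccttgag

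The cato gene (FBgn0024249, 2R, 16277685 to 16278396, minus strand) had a peak just outside its window. The summits nearest to it were at 16272058 in the pooled list, 16272032 in replicate 1 and 16272040 in replicate 2, between 5.63 and 5.65 kb from the gene. This one site lies between starts of CG33017 and Khc, the kinesin heavy chain gene, and was found in both replicates, at rank 12985 in replicate 1 and 7445 in replicate 2. The nearest reproducible summit was 15.92 kb away, 82 bp from a start of the autophagy gene Atg9. Unlike ato and amos, cato has 3 other coding starts within its window, which still held no summit.

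**Figure D4:**
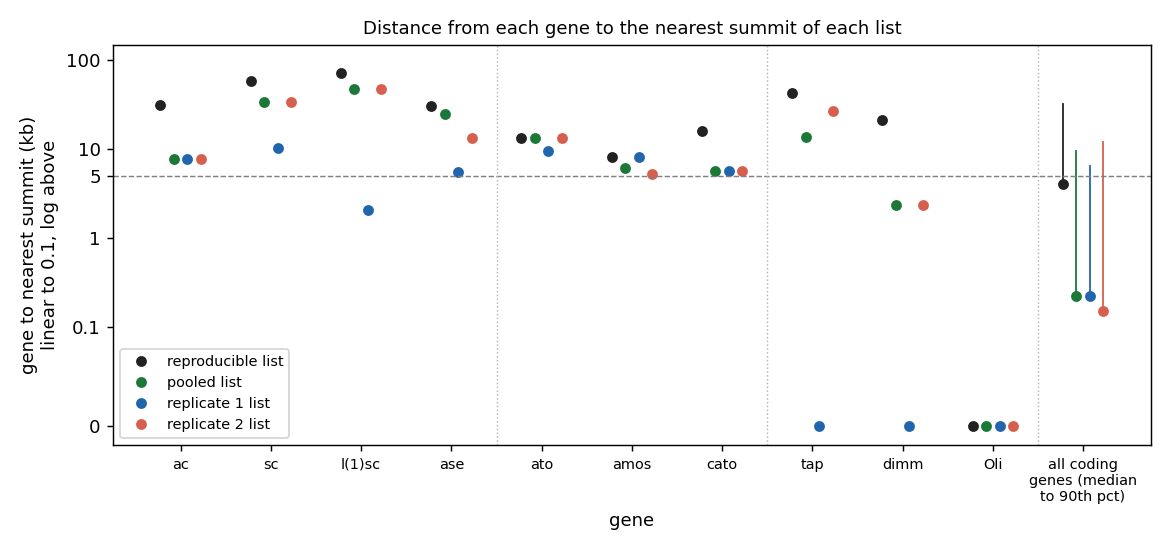
Distance in kb from each gene to the nearest summit of each list, on an axis that is linear to 0.1 kb and logarithmic above, with the median and the range up to the 90th percentile for all protein-coding genes at the right and the 5 kb limit as a dashed line. The achaete-scute and atonal genes lie above the limit in every list, except l(1)sc in replicate 1.

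Set side by side, the achaete-scute and atonal genes were both nearly without peaks. The 4 achaete-scute windows covered 45.9 kb and held 0 reproducible, 0 pooled, 1 replicate 1 and 0 replicate 2 summits. The 3 atonal windows covered 32.7 kb and held 0 in each list. A ratio of summits per kb therefore could not be formed in the pooled list. The distance to the nearest summit separated the sets only in the reproducible list. Reproducible summits were 30.83 to 71.40 kb from achaete-scute genes and 8.19 to 15.92 kb from atonal genes, and pooled ones were 7.75 to 47.44 kb and 5.63 to 13.30 kb away, ranges that overlap. In replicate 1 the distances were 2.06 to 10.17 kb for achaete-scute genes and 5.65 to 9.61 kb for atonal genes. In replicate 2 they were 7.77 to 47.46 kb for achaete-scute genes and 5.31 to 13.30 kb for atonal genes. The median over all genes was 4.01 kb for reproducible summits and 0.22 kb for pooled ones. The 4 achaete-scute genes share 1 stretch of chromosome and are not independent, and no test was made over so few genes. The genes tap, dimm and Oli belong to the wider Atonal superfamily and were counted apart. They held 6 pooled summits in 44.6 kb, or 13.4 per 100 kb, all at dimm and Oli. The comparison thus depends on the grouping, since the atonal group had 0 pooled summits without these 3 genes and 6 with them.

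The share of member summits found in both replicates was near that of other peaks of similar rank in replicate 2 and lower in replicate 1, at counts too small to separate. Of 15 replicate 1 summits at members, 3 had a replicate 2 summit within 100 bp: the 2 Oli promoter sites and the shared dimm site. Over all replicate 1 peaks the share was 41.0%, and from rank 5664 downwards, where the member peaks lie, 29.4%. Of the 10 replicate 2 summits at members, 3 were matched, against 30.7% of all replicate 2 peaks from rank 5183 downwards. Of the 15 replicate 1 summits, 5 had a deposited q no higher than 0.05, against 29.7% of that list. Of the 10 replicate 2 summits, 3 did, against 57.5% of that list. The best rank of any member summit in the pooled and replicate lists was 5183, so all of them lay below the highest peaks.

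Other genes of the pathway held peaks at shares near or above those of all genes, but mostly in longer windows. Their windows were 10.5 to 109.1 kb long, nearly all above the 12.2 kb median of all genes. The part of window length in these shares was not tested. Of 34 regulators, partners and targets examined with the same window, 19 had a reproducible summit (55.9%), close to the 54.0% of all genes, and 31 had a pooled one (91.2%, against 80.8%). Among 11 upstream regulators of proneural genes, 6 had a reproducible summit. The highest was in an intron of ush, a cofactor of the GATA factor gene pnr, at rank 5, in a window of 74.3 kb with 17 reproducible summits. The coding start nearest to that summit was of cbt, 1407 bp away. The zinc-finger gene chn (rank 552, in an intron), the repressor gene h (2291, 3082 bp upstream) and emc (2818, 15 bp from its start), which encodes an inhibitor that sequesters proneural proteins, followed. The prepattern genes pnr and ara had none. The common partner da had 2, and the higher, at rank 1437, lay 175 bp from a start of its neighbour mRpS7.

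Of 17 precursor and target genes, 8 had a reproducible summit. The highest was counted for the neural fate gene pros at rank 388, but it lies 61 bp from a start of its neighbour mgr. The next were those of cpo at rank 484 and of neur, which encodes a ubiquitin ligase of Notch signalling, at rank 557 in an intron. The summit counted for sv, at rank 599, lies in the 3′ UTR of its neighbour Cals. The sensory precursor gene sens and the neural gene scrt had none and 4 and 6 pooled summits. The neuroblast genes dpn and mira, chosen here after their values were seen, had no summit in any list. Of 5 peptide processing genes, which include enzymes that dimm activates in peptidergic cells, 4 had a reproducible summit: Pal1 (rank 21), svr (80), amon (87) and Pal2 (1890). Phm, the amidating monooxygenase gene, had none and 1 pooled summit. The svr summit, 2441 bp from the gene, is the same peak that flanks ase on its far side. Windows of these genes differ widely in length and in neighbouring starts, so the counts are descriptive. At Fer3 itself the same window held 1 reproducible and 7 pooled summits.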

How the data were processed

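Both samples are Fer3-GFP ChIP-seq of whole embryos, with chromatin sonicated to 200 to 800 bp, per the labels. The authors deposited 1 narrowPeak list per replicate on dm6, made against 1 shared control alignment, and for the series a list from both alignments pooled and an IDR-thresholded list, per the deposited file descriptions. The aligner, peak caller and IDR threshold are not stated there. The replicate and pooled lists hold 30000 peaks each and the reproducible list 5636, which are the highest pooled peaks. The deposited signal value per peak and the deposited −log10 q are the authors' own, and served to rank, filter and describe peaks of the same list. Peaks are ranked by signal value. Lists of fixed length cannot show how many sites a library could give, and a list entry or its absence says nothing of levels below its cutoff.

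A summit is the interval start plus the deposited summit offset, and coordinates are 1-based. Genes are those of Ensembl release 115 (dm6 coordinates), and 0 peaks ran past the arm ends of the RefSeq assembly. A summit counted for a gene if it lay in the gene or within 5 kb of it. Promoters are bases within 500 bp of a coding start. Replicate summits within 100 bp were matched. E-boxes (CANNTG, which reads the same class on both strands) were searched within 50 bp of summits and in the 250 bases before each gene's first start. The gene h is listed under a newer name and was matched by its synonym. Counting was tested on simulated data. With 2 replicates of 1 group no condition was compared, and no test was made. The 10 members and the pathway lists were chosen with earlier results of these data known. All members are named, with the nearest start or host gene of their summits and of the summits nearest to them, the 4 highest genes of each pathway list and up to 2 without a reproducible summit. The genes dpn and mira were named in addition, after their values were seen. The calculations used Python 3.11.15 and matplotlib 3.10.9. Alternatives changed the distance, the lists, the threshold, the match and the window.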

Additional observations from a re-analysis of the deposited data

How the results depend on the processing

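The counts at the members are small, and many settings moved them. For other distances and for lists cut by rank, the share over all genes was not counted. The 54.0% and 80.8% of all genes given above are for 5 kb and full lists, and cannot be set beside those counts. With 10 kb in place of 5 kb, the reproducible list had 2 summits at 2 members, Oli and amos. With the 5636 highest peaks of 1 replicate in its place, summits numbered 0 to 2 and members with one 0 to 1. The Oli peak, ranked 5664, just misses that length in replicate 1, and replicate 2 held both Oli promoter sites. In the highest 50% of the reproducible list the members had 0 summits. Pooled summits at members numbered 3 within 1 kb, 19 within 10 kb, 1 in gene bodies and 3 at a deposited q of at most 0.05, and 10 to 15 in the lists of a single replicate, against 6. Within 10 kb the achaete-scute genes had 1 pooled summit and the atonal genes 4. In the lists of a single replicate the achaete-scute genes had 0 to 1 summits. With tap, dimm and Oli added, the atonal group had 6 pooled summits. The number of matched replicate 1 summits fell to 1 within 50 bp, and the pooled windows with an E-box to 2 at a q of at most 0.05. The cause of these changes was not tested, beyond what the wider or narrower windows hold by construction. No paired analysis was possible because there is 1 group and no comparison between groups. A ratio of achaete-scute to atonal density could not be given in the pooled list, since both counts were 0. Depth is unknown, so an absent peak may be one that these libraries could not show, and counting over so few peaks limits every share given for the members.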
